A study of Mus musculus with 28 samples.

Results

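p38i-treated cells at day 5 of reprogramming were set against DMSO-treated cells at day 3, the control day that lay nearest to them in overall expression. The comparison used 4 of the 28 mouse RNA-seq libraries, with 2 replicates in each of the 2 groups. All of these cells started as OG2 mouse embryonic fibroblasts (MEFs), which carry an Oct4-GFP reporter, were taken from mid-gestation embryos of OG2 male and 129 female parents, and are labelled wild type. They received Oct4, Sox2 and Klf4 (OKS) from retroviral pMXs vectors in 2 rounds of infection, and day 0 is the switch to iCD1, an induction medium. The p38i group received SB203580, a small-molecule inhibitor of p38 kinase, during induction, and the control group received the solvent DMSO. The control groups used beside them were untreated MEFs and DMSO cells at days 1, 5 and 7, and p38i cells at day 7 were compared with DMSO cells at day 5. Because the groups compared differ by 2 days of induction as well as by the inhibitor, these causes cannot be told apart. Infected cultures are mixtures in which most cells do not become induced pluripotent stem cells, so in these bulk samples fewer cells of a type and less RNA per cell cannot be told apart.

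The p38 kinases are stress-activated MAP kinases. They are switched on by the upstream kinases MAP2K3 and MAP2K6 and pass the signal to kinases such as MAPKAPK2 and to transcription factors. In fibroblasts they take part in inflammatory, stress and cell cycle responses. During OKS reprogramming, fibroblasts lose mesenchymal genes, gain epithelial genes in a mesenchymal-to-epithelial transition (MET) and, in few cells, later switch on pluripotency genes. A comparison matched on overall expression asks which genes still differ when the inhibited cells are set against the controls nearest to them. Whether the 2 groups were at the same stage of reprogramming was not tested.

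Values are whole numbers that sum to 991287 to 992537 per library, which matches TPM (transcript levels corrected for length and scaled to a fixed library total) rounded down. They were tested as log2(value + 1), and every log2 difference below is on that scale, which understates changes of genes with low values. A gene was called when its p-value from limma, adjusted over 13230 genes by the Benjamini-Hochberg method, was under 0.05. Each p-value and SE took its spread from a single model of all 28 libraries in 14 groups, not only from the 4 libraries compared. Nothing in the labels says that replicates were separate cultures, so p-values measure only the spread between replicates within these groups.

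The control day was selected by a readout, so the closeness itself is a description. The root mean square difference over the 13230 genes was 0.496 and 0.515 for the 2 p38i day 5 libraries from the mean of DMSO day 3, a mean of 0.506 ± 0.0135 (SD, n = 2). It was 0.569 from DMSO day 5, 0.690 from DMSO day 7, 0.862 from DMSO day 1 and 1.41 from MEFs. Replicates differed from each other by 0.399 at p38i day 5 and by 0.377 at DMSO day 3. Each p38i library was nearer to DMSO day 3 than to any other control group. At this choice 2714 genes were called (20.5% of those tested), a total that the choice of the nearest day makes small. Of these, 1208 were higher (9.13%) and 1506 lower (11.4%) in p38i day 5. After quantile normalization 1545 were higher and 1454 lower, so which direction held more genes depended on the normalization. The share called was 26.6% against DMSO day 5, 43.3% against day 7, 50.9% against day 1 and 68.9% against MEFs. Of the called genes, 150 rose by at least 1 on the log2 scale (1.13%) and 357 fell by at least that much (2.7%).

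A library of the p38i group stood apart. Its replicate 2 held 1.97% of its total in a list of 7 ribosomal RNA genes and genes that carry ribosomal RNA sequence, against 0.186% in replicate 1 and 0.234% and 0.253% in the DMSO day 3 libraries. Over all 28 libraries the share ran from 0.0778% to 1.97%, with a median of 0.147%. Rn18s-rs5, which carries 18S ribosomal RNA sequence, was at 1035 and 16361 in p38i day 5 and at 1362 and 1528 in DMSO day 3. Lars2, a mitochondrial leucyl-tRNA synthetase gene that attracts ribosomal RNA reads, was at 71 and 572 against 94 and 100. Replicate 2 was the high sample for both, and replicate 1 was below both controls. The small nuclear RNA Rn7sk was at 7 and 309 against 0 and 0, and Rmrp, the RNA of RNase MRP, was at 1 and 128 against 0 and 0. Both were called higher (adjusted p 0.0016 and 0.015), with replicate 2 far above replicate 1. Without replicate 2 Rmrp was not called, and Rn7sk was called at a log2 difference of 3.00 (adjusted p = 0.046). With all libraries, only mt-Rnr2 of the ribosomal RNA list, the large mitochondrial ribosomal RNA, was called. It was at 328 and 843 against 332 and 313. Its log2 difference was 0.70 ± 0.24 (SE from the model of all 28 libraries, n = 2 in each group) with an adjusted p of 0.042, and replicate 2 alone was high. The median log2 difference of the list was 0.70 with both p38i day 5 replicates, -0.46 without replicate 2 and 1.97 without replicate 1. Without replicate 2, 923 genes were called higher (6.98%) and 1076 lower (8.13%). Of the 1208 genes called higher with both replicates, 796 were called without it (65.9%, or 86.2% of the smaller set), and of the 1506 called lower, 974 were (64.7%, or 90.5% of the smaller set). Without p38i day 5 replicate 1, 684 genes were called higher and 1103 lower, and without DMSO day 3 replicate 2, 754 and 1057. Counts for the gene groups below are given also without p38i day 5 replicate 2 where they differ. Where leaving out another library moves the larger count by more than 1.5 times, that count or the list median is given too. Each list count stands beside the 9.13% of all genes called higher and the 11.4% called lower.

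**Figure D1:**
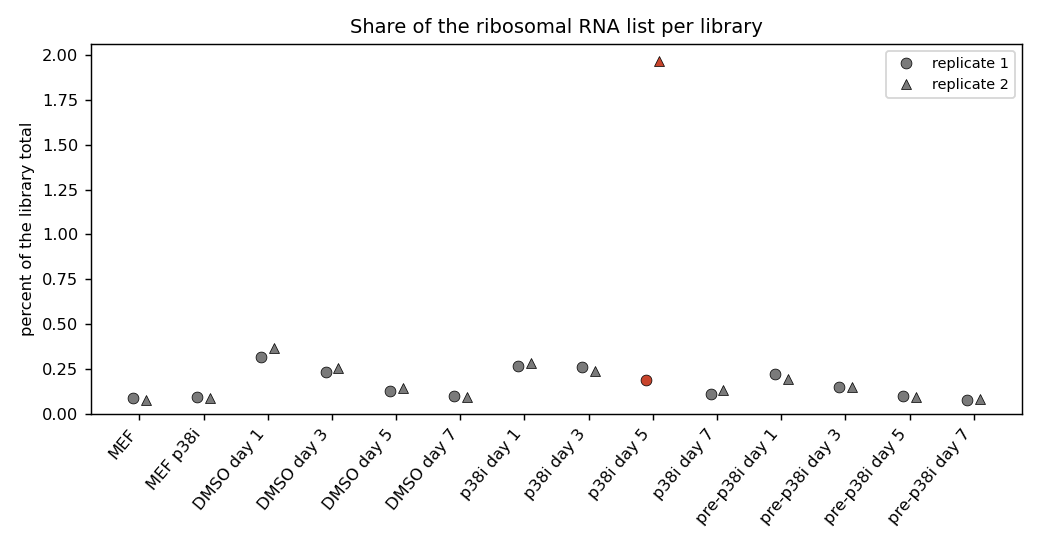
Share of each library's total (percent, y axis) in the list of 7 ribosomal RNA and ribosomal RNA-like genes, for the 14 groups (x axis), with replicate 1 as circles and replicate 2 as triangles and p38i day 5 in red. The p38i day 5 replicate 2 is at 1.97% and every other library is lower, with a median of 0.147% over all 28.

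Of the 10 genes named for the largest falls, 4 were interferon-inducible GTPases. Tgtp2 (chromosome 11, 49057194 to 49064206, minus strand, GRCm38), a GTPase of the immunity-related (IRG) family, was at 22 and 52 in DMSO day 3 and at 1 and 2 in p38i day 5, a log2 difference of -3.83 ± 0.30 (SE) and an adjusted p of 2.7e-08. Iigp1, another IRG GTPase, was at 20 and 42 against 2 and 2. Cma2, annotated as a chymase, was at 22 and 23 against 1 and 1, and Mcpt8, named as a mast cell protease, at 37 and 34 against 4 and 5. Which cells held these transcripts was not tested. Absence of overlap was a condition for naming these genes. The DMSO replicates differed among themselves most for the IRG genes, with replicate 2 the higher. Rgs5, a regulator of G protein signalling used as a pericyte marker, was at 25 and 22 against 2 and 2 (log2 difference -3.03 ± 0.17). Igfbp5, an insulin-like growth factor binding protein, was at 38 and 29 against 5 and 5. Mmp13, a collagenase, was at 9 and 13 against 3 and 0, and Tgm3, an epidermal transglutaminase, was at 40 and 38 against 5 and 7. Tgtp2 and Cma2 have near-identical transcripts of other genes (Tgtp1, Mcpt9), and reads may have been split among them.

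The largest rises were smaller in level. Gpr143 (chromosome X, 152781921 to 152808646, plus strand), a receptor of melanosomes, was at 2 and 1 in DMSO day 3 and at 20 and 17 in p38i day 5, a log2 difference of 2.99 ± 0.32 and an adjusted p of 1.7e-06. Tac2, the neurokinin B precursor, was at 2 and 2 against 16 and 16, and Frem2, an extracellular matrix protein of epithelial basement membranes, was at 2 and 1 against 13 and 11. Cers1, a ceramide synthase, was at 1 and 2 against 13 and 12 (log2 difference 2.46 ± 0.26), although its transcripts overlap those of another annotated gene. Ptn, the growth factor pleiotrophin, was the most abundant of them, at 10 and 14 against 48 and 48. Olfml1 (0 and 2 against 10 and 9), Apba2 (1 and 2 against 10 and 8) and Fam189a2 (2 and 2 against 9 and 8) complete the 8 largest rises apart from Rn7sk and Rmrp. Their courses over induction differed. Gpr143, Cers1, Fam189a2 and Olfml1 were above every control group, though for Olfml1 this depended on p38i day 5 replicate 1. Cers1 was between 1 and 3 in MEFs and all DMSO days. Tac2 (14 and 18 at DMSO day 5) and Ptn (106 and 114 at DMSO day 7) were at or above the p38i day 5 level at later control days.

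**Figure D2:**
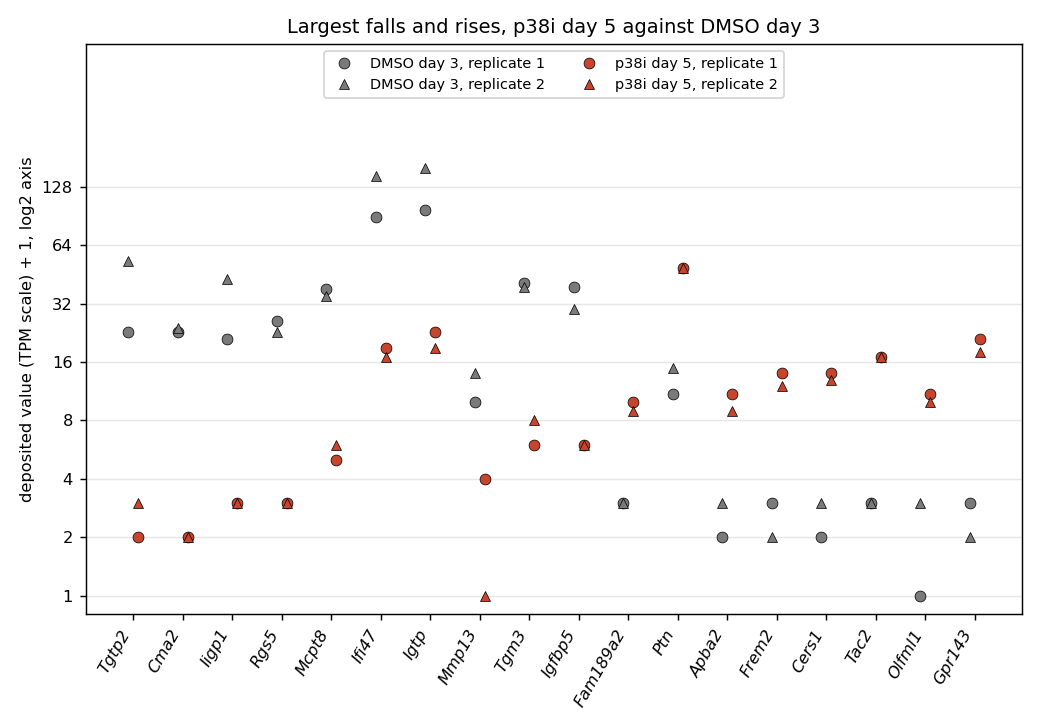
Deposited values plus 1 (TPM scale, log2 axis) of the 10 genes with the largest falls and the 8 with the largest rises in the 2 DMSO day 3 libraries (grey) and the 2 p38i day 5 libraries (red), circles for replicate 1 and triangles for replicate 2. Genes were chosen so that the 2 groups do not overlap, and Tgtp2 goes from 22 and 52 to 1 and 2.

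The interferon-inducible GTPases are shown with their promoter letters because 4 of the 10 largest falls are among them. The IRG and guanylate-binding (GBP) proteins are interferon-induced GTPases that act at the membranes of intracellular pathogens. Their genes are commonly controlled by 2 kinds of element, the interferon-stimulated response element (ISRE, searched as GAAA, any 2 bases and GAAA) and the gamma-activated site (GAS, searched as TTCNNNGAA), both on either strand. RefSeq windows of 250 bases upstream of a start site (GRCm38.p6) were found for 11 of the 18 listed genes. An ISRE match was present in 10 of the 11 (90.9%), against 3.46% of all 27025 genes with a window, and a GAS match in 7 of the 11 (63.6%), against 8.13% of all. In 4 genes, Irgm2, Igtp, Tgtp1 and Tgtp2, the GAS letters ended 2 bases before the ISRE letters began. Tgtp1 and Tgtp2 have near-identical transcripts, and Igtp and Irgm2 share most letters around the match, so these may not be 4 separate instances. The last 100 bases before the start are given 5′ to 3′ on the gene's strand, with the matching letters in capitals, for Tgtp2 (chr11:49064213-49064312, minus strand), Igtp (chr11:58199456-58199555, plus strand), Irgm2 (chr11:58214877-58214976, plus strand), Gm12250 (chr11:58183743-58183842, plus strand) and Gbp2 (chr3:142620563-142620662, plus strand).
Tgtp2: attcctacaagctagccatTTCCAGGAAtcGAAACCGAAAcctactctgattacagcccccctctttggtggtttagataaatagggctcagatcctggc
Igtp: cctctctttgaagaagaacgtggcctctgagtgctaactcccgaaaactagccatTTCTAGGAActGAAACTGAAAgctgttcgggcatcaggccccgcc
Irgm2: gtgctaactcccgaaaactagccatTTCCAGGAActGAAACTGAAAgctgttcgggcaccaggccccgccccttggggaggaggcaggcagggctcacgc
Gm12250: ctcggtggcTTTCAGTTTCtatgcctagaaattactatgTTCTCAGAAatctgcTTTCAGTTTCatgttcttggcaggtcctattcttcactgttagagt
Gbp2: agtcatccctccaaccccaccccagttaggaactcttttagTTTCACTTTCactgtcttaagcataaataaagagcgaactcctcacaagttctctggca
In the first 3 the capitals run as a GAS, 2 lower-case bases and an ISRE, Gm12250 has an ISRE on each side of its GAS, and Gbp2 has an ISRE alone in this stretch. These matches are letters in a window and not measured binding sites.

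Of the 18 IRG and GBP genes 16 were tested, 14 were called lower and none higher in p38i day 5, with a median log2 difference of -1.98, beside 11.4% called lower and a median of 0.00 over all genes. Without p38i day 5 replicate 2, 13 were called lower. Igtp, the gene of Irgm3, was at 96 and 159 in DMSO day 3 and at 22 and 18 in p38i day 5 (log2 difference -2.58 ± 0.23, adjusted p = 9.8e-08), and Ifi47 at 89 and 145 against 18 and 16 (-2.67 ± 0.31). The summed level of the list was 1594 and 2195 in DMSO day 3, with replicate 2 the higher, and 520 and 489 in p38i day 5. It was 29 and 35 in MEFs and 258 and 267 at p38i day 3, and it reached 3200 and 3092 at DMSO day 5. The p38i sum was higher at day 5 than at day 3, and at both days it was below the DMSO day 3 sum. The medians against DMSO days 5 and 7 were -2.94 and -1.41. The calls of Tgtp2, Iigp1, Ifi47 and Igtp were lost when only the 4 libraries of the comparison entered the fit.

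The antiviral interferon-stimulated genes moved less, with 30% of the list called lower beside 11.4% of all genes. Of 40 tested, 12 were called lower and none higher (median -0.39), and 7 were called lower without either p38i day 5 replicate and 5 without DMSO day 3 replicate 2. Among the largest falls were Irf1, a transcription factor of the gamma-interferon response, at 45 and 71 against 14 and 17 (log2 difference -1.81 ± 0.19), Zbp1, a nucleic acid sensor, at 148 and 164 against 56 and 63, and Trim21, an antibody receptor, at 30 and 30 against 17 and 13. The other 28 members were not called, and the list's log2 differences ran from -1.81 to 0.23. An ISRE match was in 9 of 29 promoters of this list (31.0%). In the p38i day 5 libraries the list sum was 2978 and 2949, and in DMSO day 3 it was 3341 and 3877.

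MHC class I presentation split within its own pathway. Of 20 genes tested, 14 were called lower and 3 higher (median -0.57), 12 and 3 without p38i day 5 replicate 2, and 9 and 3 without DMSO day 3 replicate 2. The lower genes were led by the immunoproteasome subunits and the peptide transporter, with Psmb9 at 21 and 31 against 4 and 5 (log2 difference -2.28 ± 0.22), Psmb8 at 38 and 66 against 13 and 12 and Tap1 at 83 and 109 against 30 and 29. Nlrc5, the transactivator of class I genes, was at 8 and 11 against 3 and 3, a call lost under 5 of 11 alternatives. The 3 genes called higher were the classical heavy chains H2-K1 (185 and 197 against 277 and 268, log2 difference 0.51) and H2-D1 (219 and 242 against 276 and 283, 0.28) and the light chain B2m (2307 and 2447 against 2930 and 2875, 0.29), which were named after their values were seen. The groups did not overlap for any of the 3.

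Macrophage markers were also lower in p38i day 5 than in DMSO day 3. Of a list of 17, all 17 were at 1 or more in the DMSO day 3 libraries and 15 in the p38i day 5 libraries, and the summed level was 550 and 552 against 296 and 293. Of 15 tested, 8 were called lower and none higher (median -0.98), and 6 were lower without p38i day 5 replicate 2. C1qa, a complement component made by macrophages, was at 18 and 20 against 4 and 2, and C1qc at 23 and 20 against 5 and 4. The macrophage sum was 378 and 361 in MEFs, 302 and 295 at p38i day 3 and 606 and 617 at DMSO day 5. A macrophage part in the interferon gene differences was not tested. The T and NK cell list summed to 13 and 12 in DMSO day 3 and to 6 and 8 in p38i day 5, with 3 of its 10 genes tested and Lck called lower (1 and 4 against 0 and 1), a call lost under 6 of 10 alternatives with groups that overlap at 1.

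**Figure D3:**
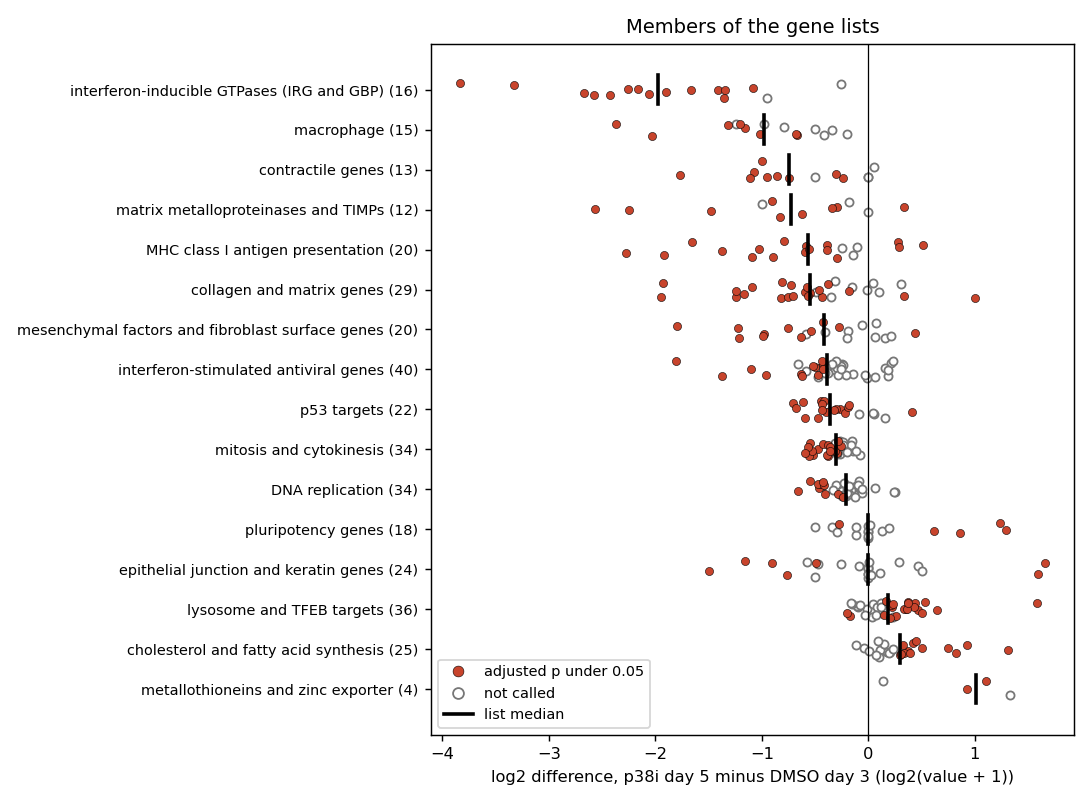
Log2 differences (p38i day 5 minus DMSO day 3, x axis) of the tested members of 16 gene lists (y axis, number tested in parentheses), filled where the adjusted p was under 0.05 and open otherwise, with a bar at the list median. The IRG and GBP list lies farthest left with a median of -1.98, and the medians of the lysosome (0.19) and cholesterol (0.30) lists lie to the right of 0.

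Fibroblast matrix and contractile genes were lower in p38i day 5 than in DMSO day 3. Of 29 tested collagen and matrix genes 19 were called lower and 2 higher (median -0.55), and 18 and 1 without replicate 2. Bgn, the proteoglycan biglycan, was at 575 and 543 against 152 and 137 (log2 difference -1.95 ± 0.07, adjusted p = 4.6e-13), and Postn, the matrix protein periostin, was at 118 and 123 against 32 and 30. Col1a1 (chromosome 11, 94936224 to 94953042, plus strand), the type I collagen alpha chain, was at 719 and 620 against 295 and 270 (log2 difference -1.24 ± 0.08), and Col3a1 was at 632 and 607 against 257 and 266. In each the p38i libraries were below both DMSO libraries. In the control, Col1a1 was at 4164 and 3867 in MEFs and at 290 and 319 at DMSO day 7, so p38i day 5 lay near the DMSO day 7 level. Of the 13 tested contractile genes 9 were called lower and none higher (median -0.75), and 7 were lower without replicate 2, with Actg2, a smooth muscle actin, at 71 and 66 against 22 and 17 and Tpm2, a tropomyosin, at 93 and 91 against 43 and 41. The fibroblast markers showed the same order, with all 8 detected in the 4 libraries, a sum of 3738 and 3435 in DMSO day 3 and 1703 and 1710 in p38i day 5, and 6 of 8 called lower (5 without replicate 2).

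Mesenchymal regulators were mixed. Of 20 tested mesenchymal factors and fibroblast surface genes, 10 were called lower and 1 higher (median -0.42), 7 and 1 without p38i day 5 replicate 2, and 6 and 1 without DMSO day 3 replicate 1. S100a4, a calcium-binding protein of fibroblasts, was at 337 and 413 against 108 and 106 (log2 difference -1.79 ± 0.12), below every control group, and Prrx1, a mesenchymal homeobox factor, was at 127 and 133 against 56 and 54. The transition factors Twist1 (155 and 144 against 161 and 153, adjusted p = 0.48) and Zeb1 (17 and 16 against 18 and 19, adjusted p = 0.35) were not called. Of 12 tested matrix metalloproteinases and their inhibitors, 8 were called lower and 1 higher (median -0.73), and 5 were lower without p38i day 5 replicate 1. Mmp3, stromelysin, was at 43 and 48 against 7 and 11, and Mmp2, a gelatinase, at 180 and 162 against 90 and 92. Of 21 tested TGF-beta and BMP genes, 11 were called lower and 1 higher, 9 and 1 without p38i day 5 replicate 2, and 7 were lower without p38i day 5 replicate 1 or without DMSO day 3 replicate 1. Id1, an inhibitor of DNA binding and a BMP target, was at 42 and 45 against 15 and 15, and Id3 was at 25 and 25 against 11 and 8.

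Epithelial genes had no common direction between the 2 groups. Of the tested list 8.33% were called higher and 20.8% lower, beside 9.13% and 11.4% of all genes. Of 24 tested of 30 listed, 2 were called higher and 5 lower (2 and 4 without p38i day 5 replicate 2, and 2 and 3 without p38i day 5 replicate 1 or DMSO day 3 replicate 1), and the median was 0.00. Cdh1, E-cadherin, was at 33 and 30 in DMSO day 3 and at 36 and 32 in p38i day 5 (log2 difference 0.11 ± 0.10, adjusted p = 0.48), and the groups overlapped in range. Epcam (chromosome 17, 87635979 to 87651106, plus strand), an epithelial adhesion molecule, was at 8 and 10 against 30 and 28 (1.59 ± 0.20, adjusted p = 9.8e-06), and Spint1, a protease inhibitor of epithelia, was at 1 and 0 against 3 and 4. The simple keratins went the other way: Krt18 was at 14 and 13 against 5 and 6 (-1.16 ± 0.29, adjusted p = 0.0079), a call lost under 4 of 11 alternatives, and Krt8, its partner, was at 10 and 10 against 6 and 8 without being called (-0.47 ± 0.22, adjusted p = 0.15). Cldn6, a tight junction gene, was at 3 and 1 where p38i day 5 was listed at 0, a call lost under 4 of 10 alternatives, and Cldn3 was at 1 and 0 against 1 and 0. Of 12 tested epidermal genes 4 were called lower and none higher. They were Tgm3, Krt6a (8 and 8 against 1 and 1), Tgm1 (14 and 12 against 4 and 4) and Dsg3 (1 and 1 against 0 and 0), of which Krt6a has a near-identical copy in Krt6b.

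All 3 delivered factors had negative log2 differences, and Pou5f1 was called lower. The list median was -0.21 with all libraries, -0.10 without p38i day 5 replicate 2 and -0.32 without replicate 1. Pou5f1 was at 3488 and 3216 in DMSO day 3 and at 2472 and 2319 in p38i day 5 (log2 difference -0.48 ± 0.05, adjusted p = 2.3e-07), and it was at 0 in MEFs. These values join the vector transcript and the cell's own gene. Sox2 was at 1080 and 886 against 914 and 784 (adjusted p = 0.47) and Klf4 at 806 and 667 against 698 and 596 (adjusted p = 0.13). Of 18 tested pluripotency genes, 4 were called higher and 1 lower (median 0.00), beside 9.13% and 11.4% of all genes, and 3 were higher and none lower without replicate 2. The 4 were at low levels. Tfcp2l1, a factor of naive pluripotency, was at 10 and 10 against 20 and 18 (log2 difference 0.86 ± 0.20), Nr0b1, an orphan nuclear receptor of embryonic stem cells, at 6 and 3 against 12 and 11, Gdf3, a TGF-beta family ligand, at 5 and 6 against 8 and 10, and Nr5a2, a nuclear receptor that can stand in for Oct4, at 1 and 2 where DMSO day 3 was listed at 0. Nanog was listed at 0 in all 4 libraries, and at 12 and 16 by DMSO day 7.

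Genes outside the range of every control stage were then examined, since such a difference does not depend on which day is taken as the match. By this rule, called on the same side of MEFs and of DMSO days 1, 3, 5 and 7, 258 genes were above (1.95% of those tested) and 270 below (2.04%). After quantile normalization the numbers were 380 and 223. Without p38i day 5 replicate 2 they were 217 and 197, without replicate 1 142 and 191, and without DMSO day 3 replicate 2 181 and 168.

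Many genes of cell division lay below every control stage. Of 34 tested genes of mitosis and cytokinesis, 19 were called lower than DMSO day 3 and none higher (median -0.30), all 19 of them also lower than each other control group. This number was 18 without p38i day 5 replicate 2, 13 without replicate 1 and 12 without DMSO day 3 replicate 2. The log2 differences were small, the most negative being -0.60 for Cep55. Aurka (chromosome 2, 172356190 to 172370535, minus strand), the Aurora A kinase of the spindle poles, was at 44 and 47 against 31 and 30 (log2 difference -0.56 ± 0.07, adjusted p = 1e-05), after 106 and 108 at DMSO day 1. Anln, the cytokinesis scaffold anillin, was at 50 and 58 against 37 and 35, Cenpe, a kinetochore motor, at 10 and 10 against 7 and 6, and Cep55, a protein of abscission, at 9 and 10 against 5 and 7. Of 34 DNA replication genes, 10 were called lower and none higher (median -0.21), the 10 also below every other control group, with 7 called lower without either p38i day 5 replicate and 6 without DMSO day 3 replicate 2. Rrm2 and Rrm1, the subunits of ribonucleotide reductase, were at 132 and 131 against 93 and 86 and at 96 and 100 against 70 and 72. Myc, a growth-promoting transcription factor, was at 35 and 35 against 23 and 16, below every control group.

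Targets of p53 were lower at the same time. Of 22 tested, 16 were called lower and 1 higher (median -0.36), beside 11.4% and 9.13% of all genes. The numbers were 12 and 1 without p38i day 5 replicate 2, 10 and 1 without replicate 1, and 9 and 1 without DMSO day 3 replicate 2. Of the list 4 genes lay below every control group, and 1 to 3 with a library left out. Cdkn1a (chromosome 17, 29090979 to 29100722, plus strand), which encodes the cell cycle inhibitor p21, was at 1258 and 1191 in DMSO day 3 and at 811 and 811 in p38i day 5 (log2 difference -0.59 ± 0.04, adjusted p = 1.2e-08). MEFs were at 384 and 370, so Cdkn1a was below DMSO days 1 to 5 and above MEFs. Eda2r, a TNF receptor family member, was at 45 and 46 against 28 and 27, and Fas, a death receptor, at 19 and 19 against 11 and 12. Trp53 itself was at 156 and 142 against 130 and 118 (log2 difference -0.26 ± 0.07, adjusted p = 0.0073), a call lost under 3 of 11 alternatives.

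Among the lists examined, that of lysosome genes and targets of TFEB held the most genes above every control stage. TFEB and its relatives are transcription factors that raise lysosome genes through an element searched here as TCACGTGA (CLEAR, which reads the same on both strands). Of 36 tested genes 19 were called higher and 2 lower than DMSO day 3 (median 0.19), beside 9.13% and 11.4% of all genes, and 16 were above all 5 control groups, beside 1.95% of all genes. Without p38i day 5 replicate 2, 18 were higher and 2 lower. Rragd (chromosome 4, 32983037 to 33022180, plus strand), a GTPase that couples amino acids to mTORC1, was at 10 and 10 against 32 and 32 (log2 difference 1.58 ± 0.16, adjusted p = 8.5e-07), with no control library above 17. Gpnmb, a lysosomal glycoprotein, was at 105 and 101 against 175 and 149, Fnip1, a partner of folliculin, at 22 and 23 against 35 and 31, and Neu1, the lysosomal sialidase, at 63 and 59 against 90 and 84. The remaining called members moved by less than 0.5 in size. CLEAR letters were in 5 of 28 promoters of this list (17.9%), against 0.907% of all genes. They are shown for Ctsa, protective protein of the lysosomal sialidase (chr2:164833713-164833772, plus strand), and Mcoln1, a lysosomal cation channel (chr8:3500459-3500518, plus strand), the 2 of the 5 that were called, as the last 60 bases before the start with the match in capitals.
Ctsa: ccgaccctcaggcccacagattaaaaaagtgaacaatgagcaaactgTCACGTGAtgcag
Mcoln1: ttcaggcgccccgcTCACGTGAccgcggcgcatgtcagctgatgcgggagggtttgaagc
Ctsa was at 418 and 407 against 499 and 487 and Mcoln1 at 62 and 63 against 84 and 77, and both were above all control groups. Ctsd, Gla and Atp6v1a, which also hold the letters, were not called.

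Metallothioneins bind zinc and copper and are induced by metals through metal response elements (MRE, searched as TGCACNC and TGCGCNC on both strands). Mt1 and Mt2, 2 of the 4 listed genes, were above every control group. Mt1 was at 1016 and 1073 against 2044 and 1917, a log2 difference of 0.92 ± 0.06. Mt2 (chromosome 8, 94172664 to 94173568, plus strand) was at 885 and 913 against 1987 and 1880 (1.10 ± 0.05, adjusted p = 3.4e-11), and it was at 1745 and 1724 at DMSO day 7. Mt2 was not called above every control group without p38i day 5 replicate 1. MRE letters were in 3 of the 4 promoters of the list, against 23.8% of all genes. The 230 bases before the start of Mt2 (chr8:94172388-94172617, plus strand), the promoter with the most matches in the list, hold 3, in capitals.
Mt2: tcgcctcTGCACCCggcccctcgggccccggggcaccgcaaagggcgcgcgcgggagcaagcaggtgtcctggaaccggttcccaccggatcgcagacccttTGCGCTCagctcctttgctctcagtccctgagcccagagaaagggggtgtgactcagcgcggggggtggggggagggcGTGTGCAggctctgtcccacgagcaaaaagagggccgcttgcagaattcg
Slc30a1, the zinc exporter that metals also induce, and Mt3 were not called.

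Genes of cholesterol and fatty acid synthesis were higher as well. Of 25 tested, 13 were called higher and none lower (median 0.30), 12 without p38i day 5 replicate 2 and 8 without DMSO day 3 replicate 2, and 5 were above all control groups. Dhcr7, a late enzyme of cholesterol synthesis, was at 48 and 49 against 122 and 121 (log2 difference 1.31 ± 0.07, adjusted p = 1.5e-10), with the highest control library at 69. Insig1, a sterol sensor partner, was at 120 and 123 against 227 and 237, Scd2, a fatty acid desaturase, at 836 and 784 against 1474 and 1388, and Scd1 at 406 and 360 against 660 and 630, where Scd1 and Scd2 share near-identical sequence.

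Of 21 tested genes of the p38 pathway itself 3 were called higher (14.3%) and 5 lower (23.8%), beside 9.13% and 11.4% of all genes. Leaving out any of the 4 libraries left 3 higher and 2 or 3 lower. Mapk14, which encodes p38 alpha, the kinase the inhibitor binds, was at 40 and 40 against 45 and 45 (log2 difference 0.17 ± 0.07, adjusted p = 0.12). RNA levels do not measure the kinase's activity. Map2k6 (chromosome 11, 110399122 to 110525522, plus strand), the kinase that activates p38, was at 8 and 10 against 21 and 25 (1.27 ± 0.13, adjusted p = 1e-06), with no control library above 10. Mknk2, a kinase of the translation factor eIF4E, was at 104 and 94 against 168 and 156, Cebpb, a transcription factor downstream of p38, at 34 and 32 against 22 and 22, and Rps6ka5, the kinase MSK1, at 5 and 5 against 1 and 2. Among 26 AP-1, immediate early and MAPK feedback genes 4 were called higher and 4 lower (3 and 3 without p38i day 5 replicate 2, 2 and 4 without replicate 1, and 2 and 5 without DMSO day 3 replicate 2), with Jund at 194 and 163 against 284 and 260, Fosl1 at 41 and 39 against 26 and 21 and Junb at 77 and 62 against 47 and 47. All 3 were outside every control group, Jund above and Fosl1 and Junb below, though not Jund without p38i day 5 replicate 1 or Fosl1 without replicate 2. Of the cytokine, chemokine and prostaglandin list, 2 of 18 were called higher and 4 lower (1 and 4 without p38i day 5 replicate 2, and 1 and 2 without DMSO day 3 replicate 1), and Ptgs2, cyclooxygenase 2 and a known p38 target, was at 47 and 52 against 17 and 15, below every control group. The detoxifying enzyme Nqo1 (64 and 62 against 30 and 29), the urokinase receptor Plaur (95 and 102 against 46 and 41) and the calcification inhibitor Mgp (54 and 53 against 22 and 20) were also below every control group. In the AP-1 list 15.4% were called higher and 15.4% lower, and in the cytokine list 11.1% and 22.2%. Over all genes these shares were 9.13% and 11.4%.

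**Figure D4:**
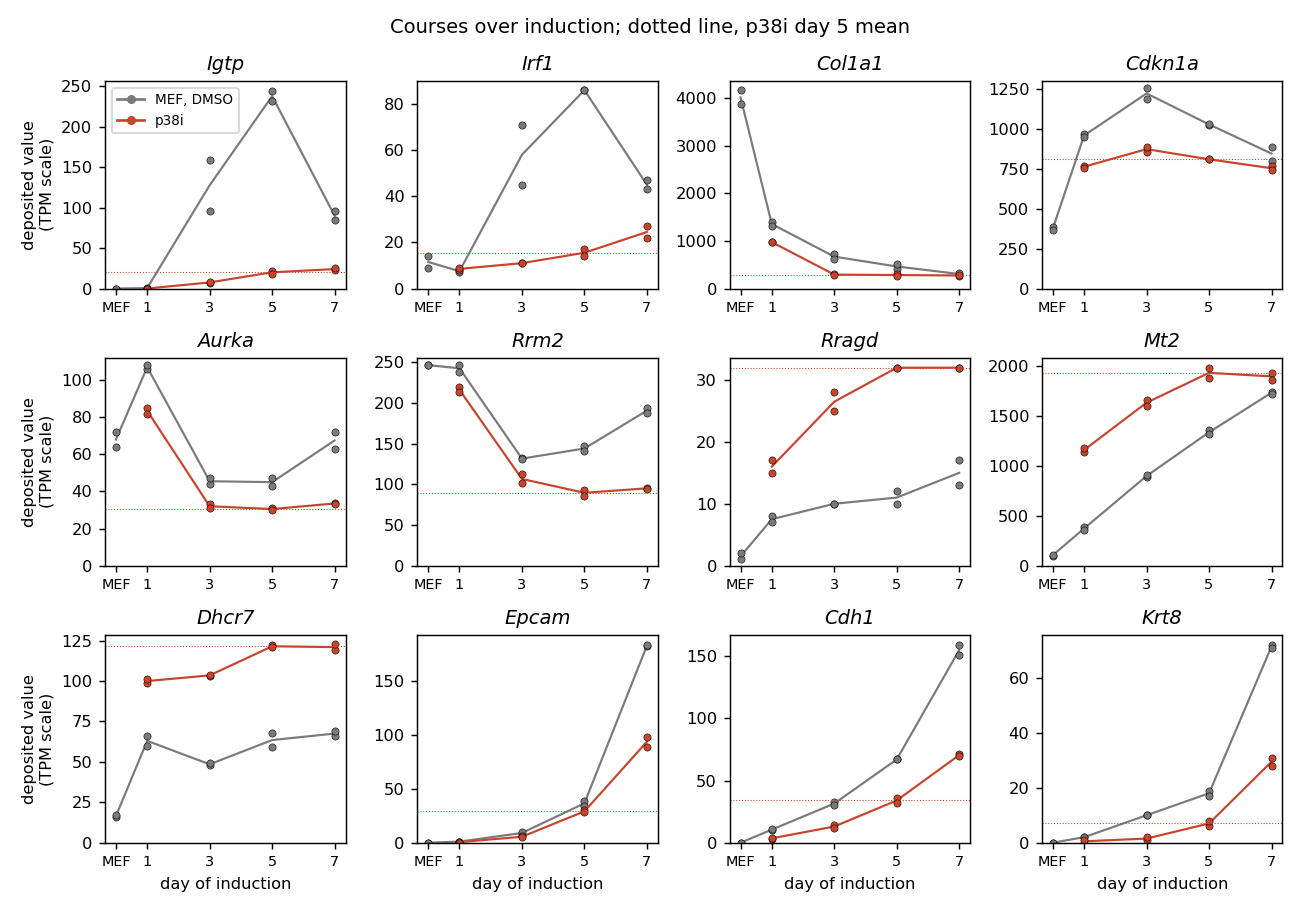
Deposited values (TPM scale, y axis) of 12 genes over induction (x axis, MEF and days 1 to 7), points for single libraries and lines through group means, grey for MEFs and DMSO and red for p38i, with the p38i day 5 mean dotted. Rragd, Mt2 and Dhcr7 at p38i day 5 are above every grey point, Aurka and Rrm2 are below every grey point, and Cdh1 at p38i day 5 is level with DMSO day 3.

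A second pair with the same step, p38i day 7 against DMSO day 5, holds 4 other libraries, although DMSO day 5 had been among the candidate control days. In that pair 1111 genes were called higher (8.4%) and 2006 lower (15.2%), which became 1731 and 1703 after quantile normalization. Of the 1208 genes higher at day 5 against day 3, 518 were higher there too (42.9%, and 46.6% of the genes called higher in that pair) and 17 were lower. Of the 1506 lower, 954 were lower there too (63.3%, and 47.6%) and 13 were higher. Both fits take the spread from the same 14 groups. The control itself went on changing, and from DMSO day 5 to day 7, 1363 genes rose (10.3%) and 2169 fell (16.4%). Of the 1506 genes lower in p38i day 5, 592 fell over that step (39.3%) and 158 rose (10.5%), and of the 1208 higher, 202 rose (16.7%) and 242 fell (20.0%).

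The interferon, division, lysosome and p53 lists had the same direction in that pair. All 16 tested IRG and GBP genes were called lower (median -2.73), as were 36 of 40 antiviral genes (median -0.80), 30 of 34 mitosis genes and 20 of 34 replication genes. Lysosome genes were called higher in 16 of 36 and lower in 1, p53 targets lower in 14 of 22 and higher in 1, and both Mt1 and Mt2 higher. Igtp had a log2 difference of -3.25, Cdkn1a of -0.45, Rragd of 1.46, Map2k6 of 1.39, Gpr143 of 1.92 and Epcam of 1.33, all called. Cdh1 was again not called (0.07, adjusted p = 0.64). Other lists differed between the pairs, some in direction and some only in extent. All 20 MHC class I genes were called lower (median -1.61), a list mostly lower in the first pair too. Cholesterol genes were higher in 3 of 25 and lower in 10, and contractile genes were higher in 2 of 13 and lower in 2. Collagen and matrix genes were mostly lower in both pairs, here higher in 4 of 29 and lower in 11 (median -0.21). The difference between the pairs, tested gene by gene, was called for 178 genes with the more positive value at day 5 against day 3 (1.35%) and for 145 with the more negative (1.1%). For H2-K1 the 2 differences were 0.51 and -1.69, for B2m 0.29 and -0.92.

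**Figure D5:**
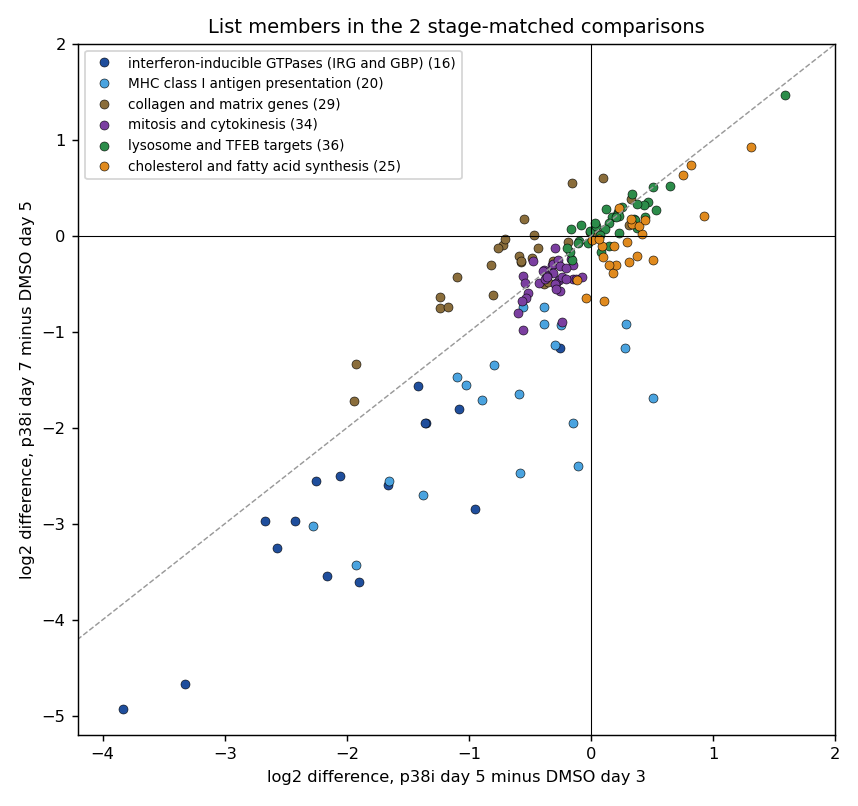
Log2 differences of the tested members of 6 gene lists in p38i day 5 minus DMSO day 3 (x axis) and in p38i day 7 minus DMSO day 5 (y axis), which share no library, with equal values on the dashed line. The IRG and GBP genes are negative on both axes, the mitosis genes lie below 0 on both, and H2-K1, H2-D1 and B2m are above 0 on x and below 0 on y.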

How the data were processed

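RNA-seq was measured in 28 libraries, 2 for each of 14 groups, which the sample labels give together with the replicate numbers. The submitters' processing notes name bcl2fastq, Bowtie2 2.2.5, RSEM 1.3.0, hg38 and mm10 without roles. The deposited values are a score per gene, whole numbers that the authors appear to have rounded down from TPM. Sequencing depth is therefore not known here, and the counting error of a value cannot be worked out. The labels and the paper differ on the library kit and RNA extraction, and the labels name no DMSO for the MEFs.

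The 13230 of 50600 genes that averaged 1 or more across all libraries were tested on log2(value + 1) with limma 3.58.1 in R 4.3.3 (a single model of all 14 groups, trended prior, no replicate block, Benjamini-Hochberg adjusted p under 0.05). In simulated data for p38i day 5 against DMSO day 3 (12918 genes), 200 genes with a DMSO day 3 mean of at least 5 were changed. Of these, 91 of 100 changed 2-fold and 96 of 100 changed 4-fold were called, and 5.56% of calls were false. The rates of detection do not cover genes at lower values. Noise was drawn independently for each gene with no library made to stand apart, so a library such as p38i day 5 replicate 2 was not simulated. Members, lists and tests were chosen with earlier results of these data known. Named genes were the 10 largest rises and falls among calls that averaged 5 or more in the 4 libraries without overlap (no clone names or ribosomal RNA), up to 4 called members per list, 5 genes on each side of all controls, and a fixed set (Nanog, Pou5f1, Sox2, Klf4, Cdh1, Krt8, Cldn3, Twist1, Zeb1, Mapk14, Trp53 and the ribosomal RNA list). H2-K1, H2-D1, B2m and the genes shown by promoter only were added after their values were seen. Some named genes are not reported here. Promoters came from RefSeq (GRCm38.p6), gene positions from the deposited table, and near-identical transcripts (95% over 200 bases) from BLAST 2.17.0 on GENCODE M21. With 2 libraries in each group, an exact permutation test of a single value cannot go below p = 0.333, so none is given.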

Additional observations from a re-analysis of the deposited data

Results flagged for a closer look

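The difference of p38i from DMSO was itself tested between the pair day 5 against day 3 and the pair day 7 against day 5, a contrast added after the data were seen. It was called for 178 genes with the more positive value at day 5 against day 3 (1.35% of those tested) and for 145 with the more negative (1.1%). Of the MHC class I list 10 of 20 were among the 178, of the cholesterol list 12 of 25 and of the antiviral interferon-stimulated list 6 of 40. Of the collagen and matrix list 13 of 29 were among the 145, as were 5 of 8 fibroblast markers. Groups of 2 libraries were too small for a test of single samples that stand apart.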

How the results depend on the processing

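DMSO day 3 was the nearest control group to p38i day 5 under every alternative run, though the distances moved. In the order MEF, DMSO days 1, 3, 5 and 7, they were 1.41, 0.816, 0.420, 0.483 and 0.595 with a minimum mean of 5, and 2.14, 1.34, 0.844, 0.893 and 1.05 with a pseudocount of 0.1. Without a filter they were 1.25 from MEF, 0.786 from day 1, 0.555 from day 5 and 0.659 from day 7, and after quantile normalization 1.28 from MEF and 0.847 from day 1. Of the counts of called genes, fitting only the 2 groups gave 270 higher and 404 lower, an alternative that has fewer samples to estimate the spread, and a log2 fold change of at least 1 gave 150 and 357, and 10 above and 16 below every control group. Leaving out each library in turn gave 684 to 923 higher and 1055 to 1103 lower, with 684 without p38i day 5 replicate 1 and 754 without DMSO day 3 replicate 2. It gave 142 to 223 above and 168 to 209 below every control group. For p38i day 7 against DMSO day 5 it gave 687 to 778 higher (724 and 687 without p38i day 7 replicates 1 and 2) and 1221 to 1705 lower (1221 without DMSO day 5 replicate 2), and quantile normalization gave 1731 higher. Without p38i day 5 replicate 2 the log2 differences of 6 ribosomal RNA list members that were not called with all libraries changed sign. Leaving out each library in turn, they ran from -6.96 to 0.18 for AY036118, from -0.69 to 1.97 for Gm26917, from -1.17 to 2.81 for Gm42418, from -0.44 to 2.55 for Lars2, from -0.48 to 3.50 for Rn18s-rs5 and from -0.46 to 1.55 for mt-Rnr1. Of 138 named genes 123 were called, and 47 kept the call under every alternative that tested them (10 or 11). Fitting only the 2 groups lost 71 of these calls. Of the called genes described in the text, leaving out a library ended the call of Cep55, Cldn6, Dsg3, Fas, Gdf3, Krt18, Lck, Nlrc5, Nr0b1, Psmb8, Rmrp, Sars, Spint1, Tek, Trp53 and mt-Rnr2, with p38i day 5 replicate 2 among the deciding libraries for Cldn6, Dsg3, Gdf3, Nlrc5, Rmrp, Trp53 and mt-Rnr2. Same-numbered replicates did not deviate together (correlation -0.0121 between p38i day 5 and DMSO day 3, and -0.0838 to 0.0874 over all pairs of groups), and the replicate block gave 1206 higher and 1506 lower and changed the call of no named gene.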

Other observations

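Several lists that answer no comparison of their own were measured in the same 4 libraries. Their counts stand beside the 9.13% of all genes called higher and the 11.4% called lower, and several are near those shares. The proliferins Prl2c2 and Prl2c3, placental growth factor genes that fibroblasts also express, were both called lower in p38i day 5 than in DMSO day 3. Prl2c2 was at 132 and 159 in DMSO day 3 and at 35 and 43 in p38i day 5, and Prl2c3 at 74 and 93 against 21 and 17, although the 2 share near-identical transcripts with each other and with Prl2c5. Of 30 genes of the ATF4 integrated stress response 5 were called higher and 3 lower (median 0.07), 4 and 2 without p38i day 5 replicate 2, and 3 and 3 without DMSO day 3 replicate 2. Wars, a tryptophanyl-tRNA synthetase that interferon also induces, was at 427 and 479 against 212 and 196, whereas Sars, the seryl-tRNA synthetase, was at 218 and 211 against 257 and 258. Of 24 tested genes of glycolysis and hypoxia 6 were called higher and 6 lower, 3 and 4 without p38i day 5 replicate 2, 3 and 3 without replicate 1, and 1 and 5 without DMSO day 3 replicate 2.

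Of 17 tested imprinted genes 3 were called higher and 4 lower, and 3 and 3 without p38i day 5 replicate 2. The maternally expressed RNAs Meg3 (12 and 11 against 31 and 24) and Rian (90 and 89 against 155 and 148) were higher, and Dlk1, a paternally expressed gene of the same cluster, was lower (7 and 7 against 3 and 4). Of the 13 mitochondrially encoded mRNAs mt-Nd2 was called higher (2465 and 2420 against 3245 and 3042), and 3 were called higher without p38i day 5 replicate 2. The mitochondrial share of the library total was 5.19% and 5.57% in DMSO day 3 and 6.09% and 6.12% in p38i day 5. Of 5 tested neural genes 2 were called lower, and Stmn2, a tubulin-binding protein, was at 289 and 276 against 100 and 99. Of 5 tested endothelial genes only Tek was called (45 and 49 against 61 and 56), and the 1 tested skeletal muscle gene was not.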
